A study of Mus musculus with 4 samples.

Results

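Marrow homing and retention genes, the receptors and adhesion molecules with which a hematopoietic stem cell finds bone marrow and stays in it, were examined in Sf3b1+/- and wild-type stem and progenitor cells. The 10 genes were Cxcr4, Cd44, Itga4, Itga5, Itga6, Itgb1, Itgal, Itgb2, Selplg and Cd47, chosen by symbol from 20887 genes with a symbol on the array. Every non-control probe whose RefSeq accession maps to one of them was taken, which gave 18 of 55681 probes. All 18 probes were well above background on all 4 arrays, so that no gene was lost to the filter on dim probes and none was kept through 1 group alone. Cxcr4, Itga5, Itga6 and Itgb2 had 1 probe each, Cd44 had 4, and the other 5 genes had 2 each.

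The cells were LSK cells, the bone marrow fraction that lacks lineage markers and carries c-Kit and Sca-1, and they came from C57BL/6 mice. There were 4 groups with 1 single-colour array each. Sf3b1+/- native cells and wild-type native cells were taken from mice aged 20 weeks, a collection for which the labels count 4 mice. Sf3b1+/- transplanted cells and wild-type transplanted cells were CD45.2+ donor cells. Lethally irradiated CD45.1+ hosts had received total marrow from Sf3b1+/- or wild-type donors, and the cells were recovered 9 months later, with 5 recipients counted. Sf3b1 encodes a core subunit of the U2 small nuclear ribonucleoprotein, and the mice carry a single working copy because homozygous null embryos die before implantation. The sources used here do not state how the allele was made, which part of the gene it lacks, or the number of mice per array. The sort used Sca-1 and c-Kit as gates in every group, and both transplanted groups share irradiation, a host and a longer time after birth of the donor cells, so that setting cannot be told apart from age, host or irradiation.

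As background, a stem cell that enters a marrow vessel first tethers and rolls on endothelial selectins through fucosylated ligands such as PSGL-1, the product of Selplg, and glycoforms of CD44. The chemokine Cxcl12, made by marrow stroma and endothelium, then signals through the receptor Cxcr4, which switches integrins into their adhesive state. The integrin dimers alpha4-beta1 (VLA-4), alpha5-beta1 (VLA-5), alpha6-beta1 (VLA-6) and alphaL-beta2 (LFA-1) bind Vcam1, fibronectin, laminins and Icam1 on vessels and matrix. The same molecules hold the cell in the marrow afterwards, and drugs that block Cxcr4 or alpha4 integrins release stem cells into blood. Cd47 marks the cell as self to macrophages, which read it through Sirpa.

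The arrays were similar in detection but not in brightness. The 75th percentile of the signal, over probes detected on all 4 arrays, was 1940 units in Sf3b1+/- native and 1652 in wild-type native cells. It was 2686 units in Sf3b1+/- transplanted and 1824 in wild-type transplanted cells. Between 47.7% and 51.5% of spots were well above background, and the LSK markers Kit, Ly6a, Cd34, Flt3, Meis1, Gata2, Ptprc, Hlf and Mecom were well above background on every array. The Sf3b1 probe read 0.165 in Sf3b1+/- native cells against 0.219 in wild-type native cells, which is 75.4% of wild type. It read 0.127 in Sf3b1+/- transplanted cells against 0.137 in wild-type transplanted cells, or 92.8%. Whether that probe lies in the deleted part is not given, so the reading does not check the labels. Levels are given throughout as relative signal, the processed signal of a probe divided by the 75th percentile of its array over probes detected on all 4 arrays. Probes differ in how brightly they bind, so a level is compared only with the same probe on another array. With 1 array in each group there is no replicate spread. The error given instead is the scanner software's own error of a log2 difference, which ran from 0.20 to 0.28 over the 18 probes and does not include differences between mice, sorts or labellings. In RNA from a sorted population, fewer cells of a type and less RNA per cell cannot be told apart.

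The stretches before the annotated start of Cxcr4, Cd44 and Itga5 are shown because, of the 6 members with a promoter sequence in the RefSeq table used here (build GRCm38.p6), these 3 had the lowest unadjusted p for the transplanted against the native setting. Each is 250 bases long, lies on the minus strand and is written in the direction of transcription. They cover chr1:128592300-128592549 for Cxcr4, chr2:102901666-102901915 for Cd44 and chr15:103366792-103367041 for Itga5. Capitals mark letter matches on either strand to the GC box GGGCGG, to the CCAAT box, to the hypoxia response core ACGTG, to the Ets core CCGGAA or to the TATA box TATAAA.
Cxcr4: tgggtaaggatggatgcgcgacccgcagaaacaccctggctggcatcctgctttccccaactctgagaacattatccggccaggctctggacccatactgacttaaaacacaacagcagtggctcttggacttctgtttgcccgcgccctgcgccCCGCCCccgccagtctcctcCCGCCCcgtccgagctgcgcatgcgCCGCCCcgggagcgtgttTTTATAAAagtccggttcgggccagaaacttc
Cd44: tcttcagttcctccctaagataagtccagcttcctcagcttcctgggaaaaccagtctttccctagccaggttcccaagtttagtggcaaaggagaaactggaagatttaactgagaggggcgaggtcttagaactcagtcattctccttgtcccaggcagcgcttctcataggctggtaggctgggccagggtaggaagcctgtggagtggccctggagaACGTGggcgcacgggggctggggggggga
Itga5: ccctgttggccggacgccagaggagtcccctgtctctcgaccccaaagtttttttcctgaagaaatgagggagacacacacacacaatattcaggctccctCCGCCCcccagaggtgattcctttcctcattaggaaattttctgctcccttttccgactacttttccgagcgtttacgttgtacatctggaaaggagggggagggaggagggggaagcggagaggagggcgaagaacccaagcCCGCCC
The Cxcr4 stretch held GC boxes beginning 95, 75 and 50 bases before the start. It also held 2 overlapping TATAAA matches on opposite strands at 32 and 30 bases. The Cd44 stretch held 1 ACGTG match at 29 bases and no GC box, and the Itga5 stretch held GC boxes at 149 and 6 bases. Over 32851 annotated mouse promoter windows of this length, GGGCGG was present in 32.7%, CCAAT in 33.8%, ACGTG in 16.6%, CCGGAA in 12.03% and TATAAA in 12.4%. The matches are letters only, and nothing in these arrays measures binding there.

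In native marrow none of the 10 homing genes was 1.5-fold apart between Sf3b1+/- and wild-type cells, where 7.98% of the 13039 genes compared were. In transplanted marrow again none of the 10 was, against 14.2% of all genes. None passed 1.5-fold the same way in both settings, against 2.62% of all genes. The median difference over the 10 genes was -0.05 (log2, Sf3b1+/- minus wild type) in native and -0.06 in transplanted cells, beside medians over all genes of -0.00 and 0.01. The differences of 8 members had the same sign in both settings, as did those of 68% of all genes. Only 1 member in native cells (Itgb2) and 4 in transplanted cells (Itga4, Itga5, Itga6 and Itgb2) differed by more than their scanner error.

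**Figure D1:**
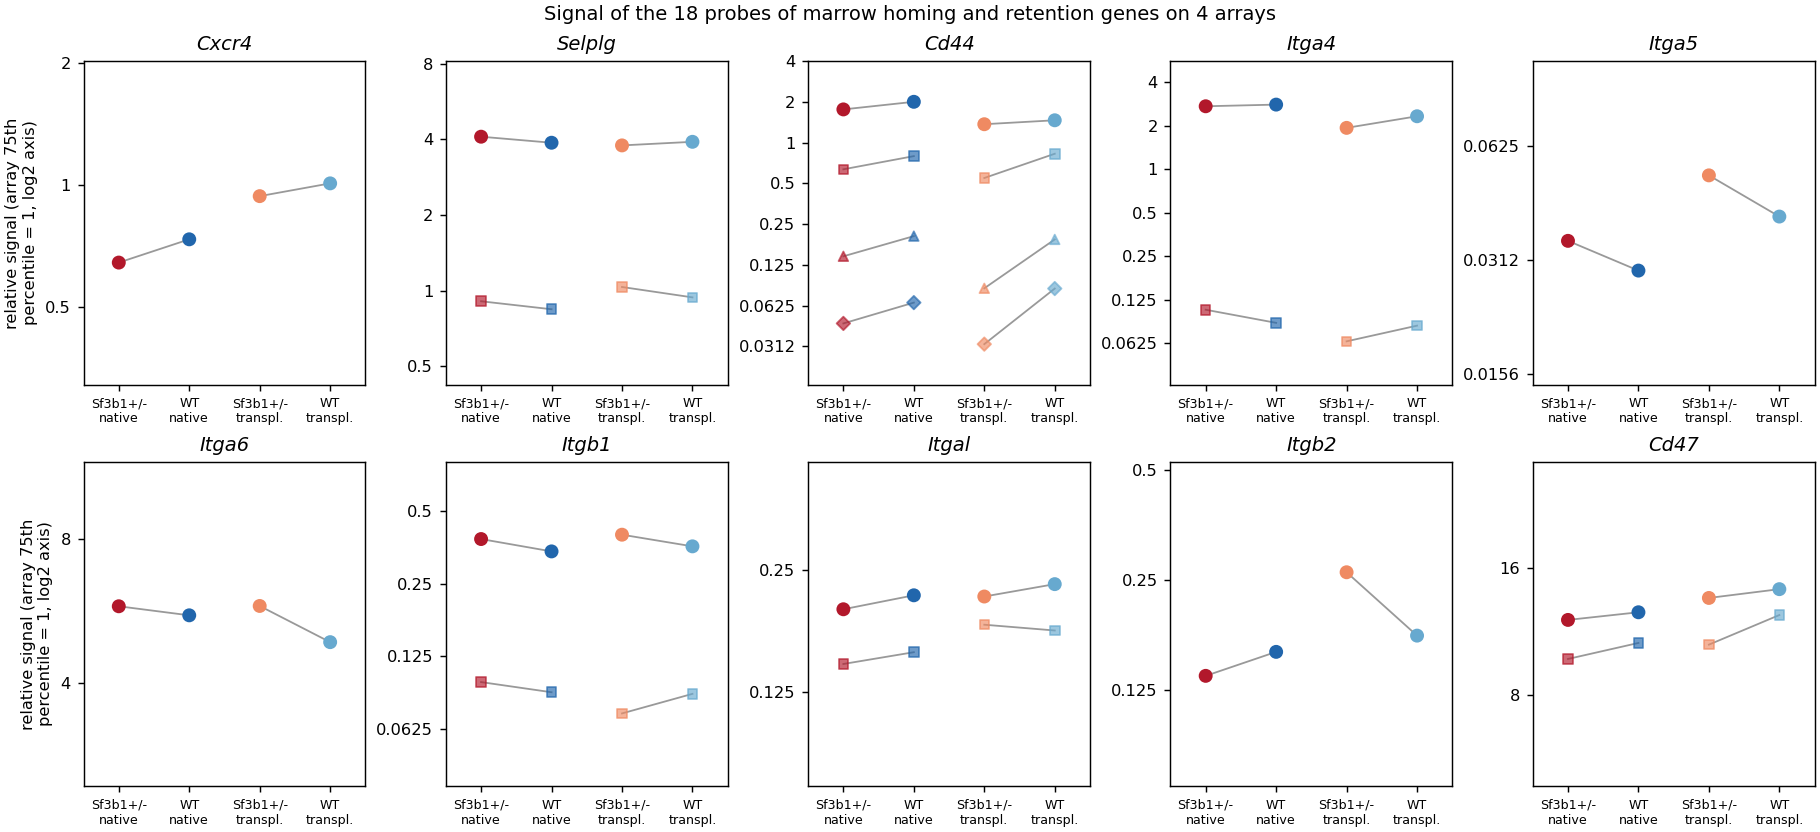
Relative signal (log axis, array 75th percentile = 1) of the 10 homing genes, 1 panel a gene, with Sf3b1+/- cells left of wild-type cells in the native and then the transplanted setting. Circles are the brightest probe of a gene, other symbols its other probes, and lines join the genotypes. The circles of Cxcr4 and Itga5 sit higher in both transplanted groups than in both native groups, and the 3 lower series of Cd44 read 0.548, 0.0839 and 0.0324 in Sf3b1+/- transplanted cells against 0.829, 0.193 and 0.0835 in wild-type transplanted cells.

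Cxcr4, the receptor for the retention chemokine Cxcl12, read 0.644 in Sf3b1+/- native cells against 0.735 in wild-type native cells. It read 0.938 in Sf3b1+/- transplanted cells against 1.01 in wild-type transplanted cells. The Sf3b1+/- value was the lower one in both settings, by -0.19 and -0.10 on the log2 scale, each within the scanner error of 0.20. In limma's additive model of genotype and setting the genotype effect was -0.15 ± 0.12 (SE) with an adjusted p of 0.561. The order of the levels, from Sf3b1+/- native and wild-type native to Sf3b1+/- transplanted and wild-type transplanted, had the settings apart and the genotypes side by side.

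Selplg, whose product PSGL-1 carries the selectin-binding sugars, had nearly level readings. Its brighter probe gave 4.10 in Sf3b1+/- native cells against 3.88 in wild-type native cells, and 3.78 in Sf3b1+/- transplanted cells against 3.91 in wild-type transplanted cells. These were differences of 0.08 and -0.05. The second probe gave 0.11 and 0.14. All 4 values lay within the scanner error, and limma's genotype effect was 0.02 ± 0.13 (SE) with an adjusted p of 0.954.

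Cd44, a receptor for hyaluronan that also binds selectins when suitably glycosylated, was the member whose probes differed most from each other in transplanted cells (in native cells the 2 Itga4 probes lay slightly further apart, by 0.34). The brightest probe (A_55_P2064043) read 1.76 in Sf3b1+/- native cells against 2.01 in wild-type native cells, and 1.37 in Sf3b1+/- transplanted cells against 1.465 in wild-type transplanted cells. The second (A_55_P2166501) read 0.636 against 0.796 in native cells and 0.548 against 0.829 in transplanted cells, Sf3b1+/- first. On the third (A_55_P2166488) Sf3b1+/- native cells gave 0.145 and wild-type native cells 0.204, while Sf3b1+/- transplanted cells gave 0.0839 and wild-type transplanted cells 0.193. The Sf3b1+/- array was the lower one on each of these probes in both settings.

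The fourth Cd44 probe (A_55_P2166486) read 0.0461 in Sf3b1+/- native cells against 0.0658 in wild-type native cells, and 0.0324 in Sf3b1+/- transplanted cells against 0.0835 in wild-type transplanted cells. In native cells the 4 differences were -0.19, -0.32, -0.50 and -0.51 in the order of brightness. In transplanted cells they were -0.10, -0.60, -1.20 and -1.36, so that the 3 dimmer probes were 1.51-fold, 2.30-fold and 2.58-fold lower in Sf3b1+/- cells while the brightest differed by less than its scanner error. The scanner errors of these differences lay between 0.20 and 0.23.

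The 3 dimmer Cd44 probes were the only ones of the 18 member probes past 1.5-fold between genotypes in either setting. Of 17067 named probes, 6.51% were this far down and 8.19% this far up in Sf3b1+/- transplanted cells, and 4.62% and 3.59% in Sf3b1+/- native cells. They read 1 gene and are not 3 separate observations. In limma's fit across all named probes their genotype effects were -0.46, -0.85 and -0.94, with unadjusted p of 0.0318, 0.0163 and 0.0182 and adjusted p of 0.377, 0.360 and 0.364. No probe of any gene was called for genotype by that fit, and 13.2% had an unadjusted p under 0.05. The spread between the highest and the lowest Cd44 probe was 1.27 in transplanted cells, a spread reached by 4 of the 61 genes with 4 named probes, Cd44 included (6.56%). In native cells it was 0.32, reached by 35 of the 61 (57.4%). The exon read by each probe is not stated in the sources used here. The brightest probe gave limma's genotype effect for the gene, -0.14 ± 0.12 (SE) with an adjusted p of 0.572, and the mean over all 4 probes gave -0.38 in native and -0.81 in transplanted cells.

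**Figure D2:**
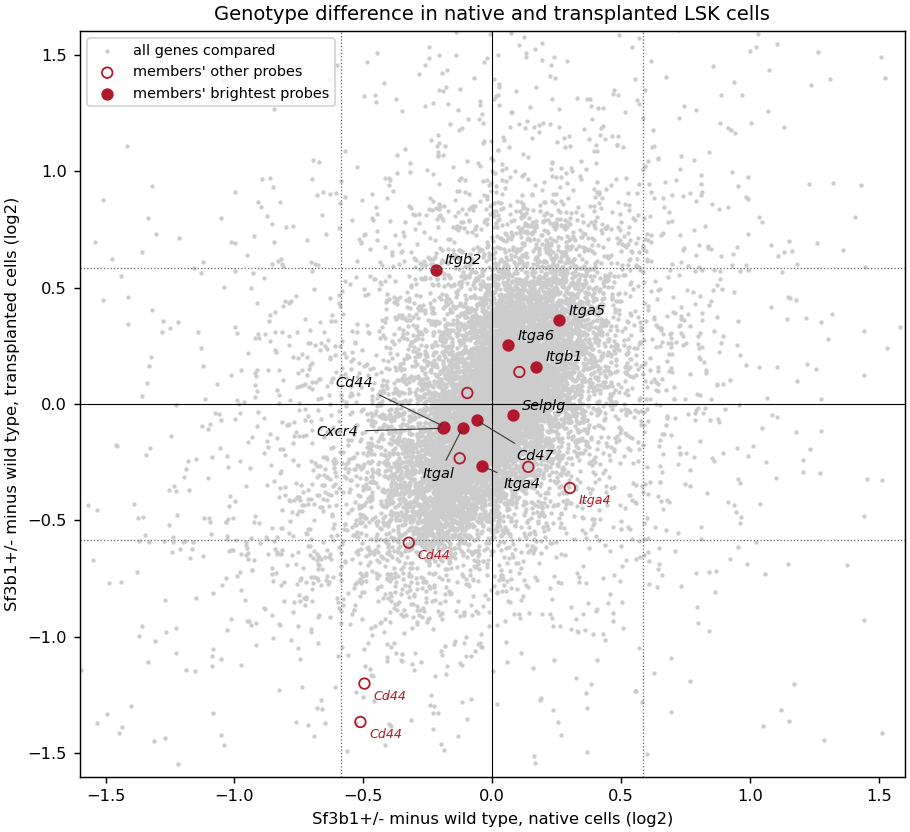
Log2 difference Sf3b1+/- minus wild type in the native setting (x axis) and after transplantation (y axis) for 12902 of the 13039 genes compared (grey), the brightest probes of the 10 homing genes (filled) and their other probes (open). The other 137 genes lie outside the plotted range of 1.6, and dotted lines mark 1.5-fold. All filled points lie inside the dotted lines, Itgb2 just below the upper one at 0.58, and the 3 open Cd44 points lie at -0.60, -1.20 and -1.36 on the y axis.

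Of the beta1 integrins, Itga4 encodes the alpha4 chain that pairs with beta1 to bind Vcam1 and fibronectin. Its brighter probe read 2.72 in Sf3b1+/- native cells against 2.80 in wild-type native cells, and 1.93 in Sf3b1+/- transplanted cells against 2.32 in wild-type transplanted cells. The differences were -0.04 and -0.27, and limma's genotype effect was -0.15 ± 0.13 (SE) with an adjusted p of 0.576. Its dimmer probe gave 0.30 and -0.36, which is the opposite sign in native cells and the same sign in transplanted cells.

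Itga5, the alpha5 chain of the fibronectin receptor, was read by 1 dim probe. Its processed signal was 68.2 units in Sf3b1+/- native cells against 48.5 units in wild-type native cells, and 140 units in Sf3b1+/- transplanted cells against 74.3 units in wild-type transplanted cells. As relative signal these were 0.0351 against 0.0293 and 0.0523 against 0.0407. The Sf3b1+/- value was the higher one in both settings, by 0.26 (scanner error 0.28) and 0.36 (scanner error 0.23). The genotype effect in limma was 0.31 ± 0.12 (SE), with an adjusted p of 0.378 that was the lowest of the 10 members.

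Itga6, the alpha6 chain of a laminin receptor, read 5.79 in Sf3b1+/- native cells against 5.54 in wild-type native cells. In Sf3b1+/- transplanted cells it read 5.80 against 4.87 in wild-type transplanted cells. The wild-type transplanted array was thus the lowest and the other readings lay close together, with differences of 0.06 and 0.25 between genotypes and a limma adjusted p of 0.557. Itgb1, the beta1 chain shared by these dimers, read 0.384 against 0.341 in native cells and 0.4001 against 0.358 in transplanted cells, Sf3b1+/- first. Its differences of 0.17 and 0.16 were below the scanner error (adjusted p 0.518 in limma), and its dimmer probe gave 0.14 and -0.27.

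Of the chains of LFA-1, which binds Icam1, Itgal read 0.20005 in Sf3b1+/- native cells against 0.217 in wild-type native cells. It read 0.215 in Sf3b1+/- transplanted cells against 0.231 in wild-type transplanted cells. The differences of -0.11 and -0.10 were below the scanner error, the limma adjusted p was 0.653, and the second Itgal probe gave -0.10 and 0.05. Itgb2, the beta2 chain, read 0.137 in Sf3b1+/- native cells against 0.159 in wild-type native cells, and 0.263 in Sf3b1+/- transplanted cells against 0.176 in wild-type transplanted cells. The Sf3b1+/- transplanted array was the highest and the Sf3b1+/- native array the lowest.

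The genotype difference of Itgb2 was thus 0.58 (1.49-fold) in transplanted cells, just inside the 1.5-fold limit, and -0.22 in native cells. The 2 differences lay 0.79 apart, a gap that 7.73% of all genes reached or passed. That gap has no test, because the additive model leaves it as its only residual, and the average over both settings was 0.18 ± 0.23 (SE) with a limma adjusted p of 0.696. Itgam and Itgax, alpha chains that also pair with beta2, are named here for that pairing, although they fall outside the rule for named genes. Itgam gave 0.01 in native cells and -0.42 in transplanted cells, and Itgax gave 0.33 and -0.32. In transplanted cells the brighter Itgal probe gave -0.10 and the second Itgal probe 0.05. The relation of these chains to the Itgb2 value was not tested.

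Cd47, the ligand of the macrophage receptor Sirpa, read 12.1 in Sf3b1+/- native cells against 12.6 in wild-type native cells, and 13.6 in Sf3b1+/- transplanted cells against 14.3 in wild-type transplanted cells. The differences of -0.06 and -0.07 were below the scanner error and the limma adjusted p was 0.794. Its second probe gave -0.13 and -0.23. Over all 10 members limma's adjusted p for genotype lay between 0.378 and 0.954. The fit called 0 of 13039 genes for genotype, where 1769 genes (13.6%) and 0 members had an unadjusted p under 0.05. These p-values rest on 4 arrays with 1 residual degree of freedom per gene. That residual is the gap between the genotype differences in native and in transplanted cells, not a spread between replicates. It was moderated with 3.04 prior degrees of freedom. The gap may be technical or a real difference between settings, which was not tested because each group had 1 array.

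Set against native cells of the same genotype, both transplanted groups had higher Cxcr4 and Itga5 and lower Cd44 and Itga4 on their brightest probes, each by more than the scanner error. For Itga5 this did not hold with normexp background correction, where the difference was 0.24 in Sf3b1+/- cells, within its scanner error, and 0.29 in wild-type cells. For Cd44 the mean over its 4 probes was -0.47 in Sf3b1+/- cells and -0.03 in wild-type cells. In Sf3b1+/- cells 1 of the 10 members, Itgb2, passed 1.5-fold between transplanted and native marrow, as did 18.4% of all genes. In wild-type cells none of the 10 did, against 13.7% of all genes. The median over the 10 members was 0.08 in Sf3b1+/- and 0.08 in wild-type cells (all genes 0.01 and 0.00). The transplantation differences are drawn from the same 4 arrays as the genotype differences, and no relation between them is given for that reason.

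**Figure D3:**
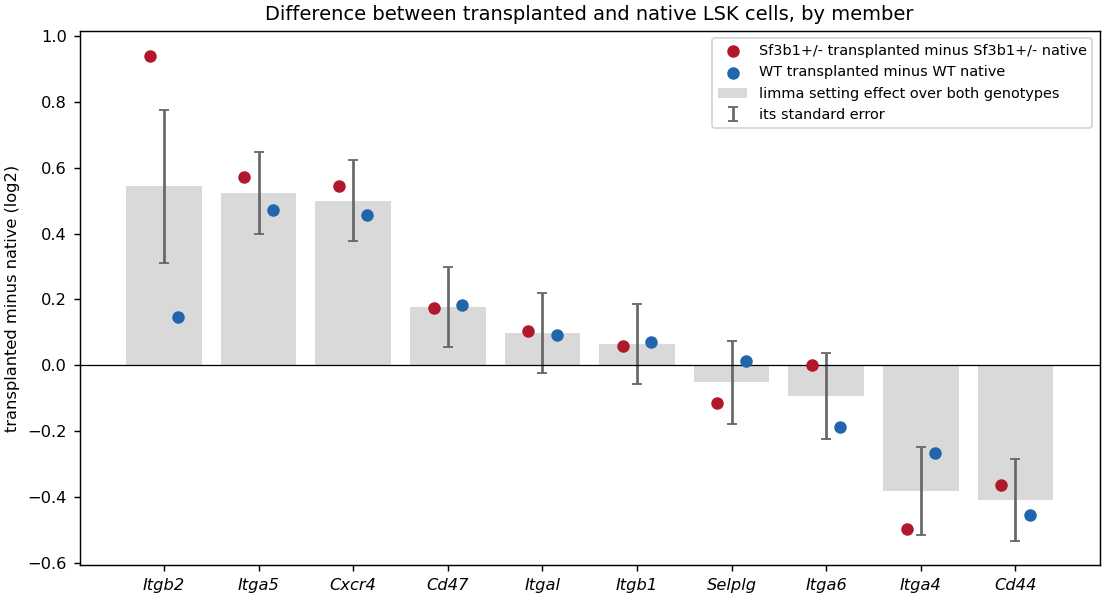
Log2 difference transplanted minus native for each homing gene, in Sf3b1+/- cells (red, left) and wild-type cells (blue, right). Grey bars are limma's setting effect over both genotypes, with its standard error. Cxcr4 and Itga5 lie above 0 and Cd44 and Itga4 below 0 in both genotypes, and Itgb2 in Sf3b1+/- cells lies at 0.94, the only point past 1.5-fold.

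The transplantation difference of Cxcr4 was 0.54 in Sf3b1+/- cells and 0.46 in wild-type cells, and 6.66% of all genes were higher by at least 0.46 in both genotypes. Itga5 gave 0.57 in Sf3b1+/- cells and 0.47 in wild-type cells. Cd44 gave -0.36 and -0.45, and Itga4 gave -0.50 and -0.27, Sf3b1+/- first. In limma's model the setting effects were 0.50 ± 0.12 (SE) for Cxcr4, 0.52 ± 0.12 for Itga5, -0.41 ± 0.12 for Cd44 and -0.38 ± 0.13 for Itga4. Their unadjusted p were 0.0153, 0.0135, 0.0297 and 0.0465 in that order, and 25.7% of all genes had an unadjusted p under 0.05. Their adjusted p were 0.135, 0.134, 0.161 and 0.189. None of the 10 members was called after adjustment, where 75 of 13039 genes (0.575%) were.

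The call depended on how limma pooled the variance. With a prior variance that follows the mean signal, which has 2226 genes called (17.1%), 3 members passed, Cxcr4 (adjusted p 0.0165), Cd44 (0.0255) and Itga4 (0.0358). For Cd44 the probes also disagreed on the setting: in Sf3b1+/- cells all 4 were lower after transplantation, at -0.36, -0.21, -0.79 and -0.51. In wild-type cells the brightest gave -0.45 and the others 0.06, -0.08 and 0.35. The dimmer Itga4 probe gave -0.73 in Sf3b1+/- cells and -0.06 in wild-type cells. Of the 18 member probes 1 was at least 1.5-fold higher (Itgb2) and 2 were at least 1.5-fold lower (1 each of Cd44 and Itga4) in Sf3b1+/- transplanted cells than in Sf3b1+/- native cells, beside 12% and 7.15% of all named probes.

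Itgb2 was higher after transplantation by 0.94 (1.92-fold) in Sf3b1+/- cells and by 0.15 in wild-type cells, and its setting effect in limma was 0.54 ± 0.23 (SE) with an adjusted p of 0.236. On their brightest probes the other 5 members differed by at most 0.19 in either genotype. Their second probes did not all follow: that of Itgb1 gave -0.43 in Sf3b1+/- and -0.02 in wild-type cells, and that of Itgal gave 0.32 and 0.18, so that both Sf3b1+/- values exceeded the scanner error of 0.21. The mean over the Itgb1 probes was -0.19 in Sf3b1+/- cells, the opposite sign to its brightest probe. Itga6 gave 0.00 in Sf3b1+/- and -0.19 in wild-type cells, and Selplg gave -0.12 and 0.01. Cd47 gave 0.17 and 0.18, Itgal 0.10 and 0.09, and Itgb1 0.06 and 0.07, again Sf3b1+/- first. Their adjusted p for setting in limma lay between 0.399 and 0.816.

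The 2 members with the widest range over the arrays were Itgb2 and Itga5, and the genes nearest to them in shape were looked for among 12176 genes detected on all 4 arrays. The measure was the Euclidean distance between centred log2 values over the 4 arrays. The nearest to Itgb2 were Ly6a at 0.05, Mllt3 at 0.06 and Qpctl at 0.09, and 1614 genes lay within 0.5. Ly6a encodes Sca-1, on which the cells were sorted, and its own genotype differences were -0.20 in native and 0.60 in transplanted cells. The nearest to Itga5 were Kti12 and Twf2, both at 0.03, and Pde6d at 0.04, with 2569 genes within 0.5. With 4 arrays many genes lie within 0.5, and the named genes were picked as the nearest, so the distances are descriptions only.

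Other genes of homing and retention were read from 9 lists, of which 141 of 164 listed genes could be compared. In native cells 1 of the 141 was at least 1.5-fold higher in Sf3b1+/- cells and 13 were lower, beside 3.27% and 4.71% of all genes. In transplanted cells 17 were higher and 5 lower, beside 7.79% and 6.43%. Of the 141, 4 passed the same way in both settings, where 2.62% of all genes did. Vcam1 and Jam3, detected on all 4 arrays, passed in opposite directions. The measured values of Ackr3 did so too, but rest on arrays where it was not well above background, and 0.813% of all genes passed in opposite directions by measured value. The counts above include Ackr3 in both settings and Plau in native cells, each below background on at least 1 array of the pair. Over genes detected on all 4 arrays, 1 was higher and 11 lower in native cells, and 16 were higher and 5 lower in transplanted cells. The shares above are over all 13039 genes compared. No share was counted over the 12176 genes detected on all 4 arrays, so these last counts have no matching share beside them. The retention chemokine Cxcl12, the endothelial selectin Sele, the Kit ligand Kitl and the protease Mmp9 were among those below the detection filter. No gene of these lists was called for genotype by limma.

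**Figure D4:**
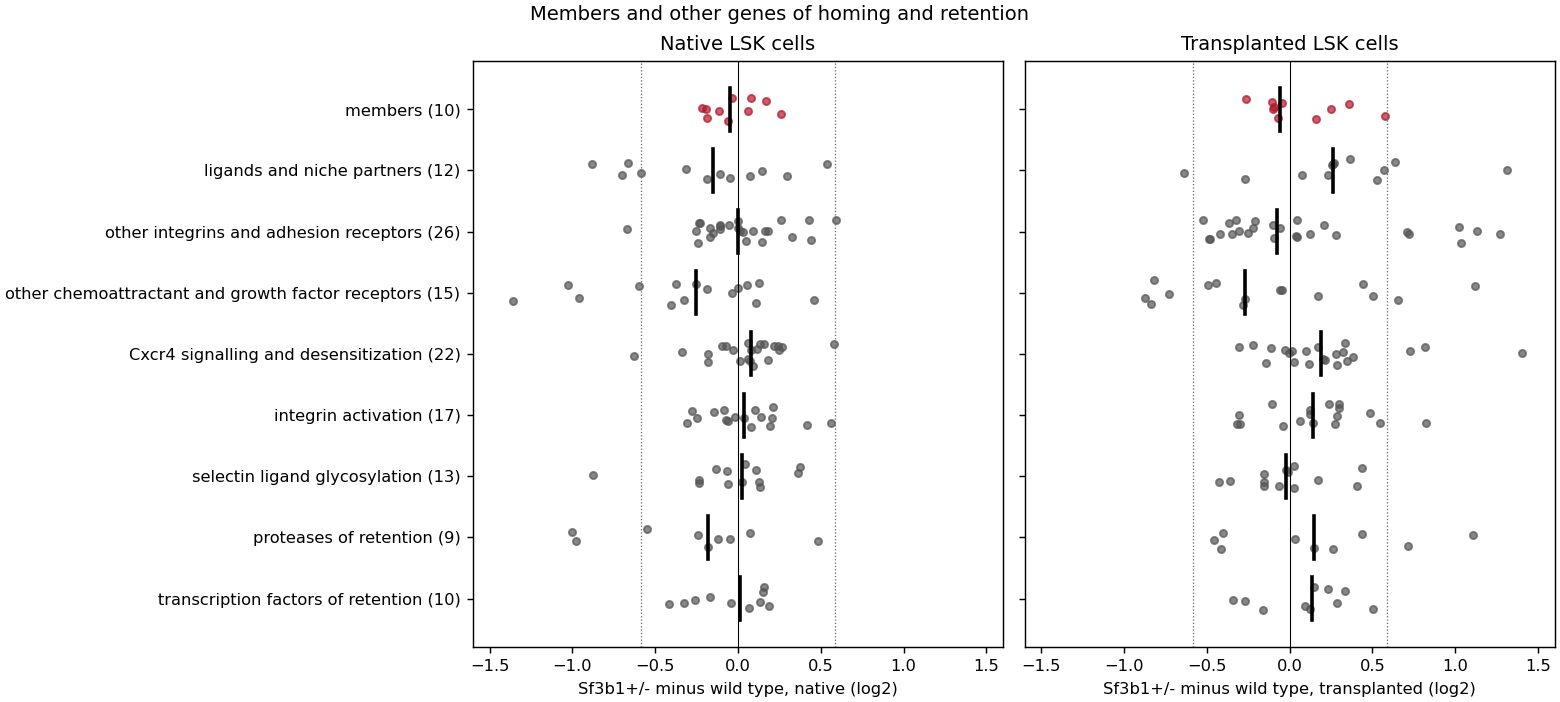
Log2 difference Sf3b1+/- minus wild type for every compared gene among the 10 homing genes and 8 of the lists, in both settings, with the median of each list and dotted lines at 1.5-fold. The members stay inside the dotted lines in both settings, while single genes of the lists lie beyond them. Examples are S1pr1 at -1.03 in native cells and the dim Ptk2 at 1.40 in transplanted cells. The leftmost native point is Ackr3, which was not well above background in Sf3b1+/- native cells.

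Among ligands and niche partners, 0 of 12 genes were higher and 4 lower in Sf3b1+/- native cells, and 2 were higher and 1 lower in Sf3b1+/- transplanted cells. Vcam1, the ligand of alpha4-beta1, gave -0.88 in native cells and 1.31 in transplanted cells. Its probe was dim, at 0.0403 in Sf3b1+/- transplanted cells against 0.0162 in wild-type transplanted cells. The selectin Selp gave -0.70 and 0.57. Thbs1, a secreted ligand of Cd47, was lower in both, at -0.59 and -0.64. Among other integrins and adhesion receptors 1 of 26 was higher and 1 lower in native cells, and 6 were higher and none lower in transplanted cells. Itgb3, the partner of Itga2b on megakaryocytes and platelets, was higher in both settings at 0.59 and 1.02, Itga2b gave 0.43 and 1.27, Jam2 gave -0.24 and 1.13, and Jam3, another junctional adhesion molecule, gave -0.67 and 1.04.

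Megakaryocyte markers read higher in Sf3b1+/- than in wild-type cells in both settings. The summed relative signal of Pf4, Ppbp, Gp1ba, Gp9 and Itga2b, each well above background on all 4 arrays, was 18.7 in Sf3b1+/- native cells against 11.9 in wild-type native cells. It was 25.1 in Sf3b1+/- transplanted cells against 14.3 in wild-type transplanted cells. Their part in the values of Itgb3, Itga2b and Selp was not tested. Itga2b stands in both lists.

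Of 15 other chemoattractant and growth factor receptors, 4 were lower and none higher in Sf3b1+/- native cells, and 4 were lower and 2 higher in Sf3b1+/- transplanted cells. Ccr7, a lymphoid chemokine receptor, gave -0.60 and -0.88, and Ptafr, the receptor of platelet-activating factor, gave -0.96 and -0.84. S1pr1, through which cells leave marrow towards sphingosine-1-phosphate in blood, gave -1.03 in native and -0.27 in transplanted cells. Ackr3, the second Cxcl12 receptor, was measured on 2 arrays only. It was at least 1.58-fold lower in Sf3b1+/- native cells, where it was not well above background, and at least 1.23-fold higher in Sf3b1+/- transplanted cells, where wild-type cells were not well above background. Such a bound sets the brighter array against the lowest signal detected on the other array or the dim probe's own signal, whichever is higher.

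Of 22 genes that signal from Cxcr4 or desensitize it, 1 was lower in Sf3b1+/- native cells, Rgs16 at -0.63 (0.20 in transplanted cells), and 3 were higher in Sf3b1+/- transplanted cells. The focal adhesion kinases Ptk2 and Ptk2b gave 1.40 and 0.82 in transplanted cells, against 0.24 and 0.13 in native cells. Ptk2 was dim, at 0.0384 in Sf3b1+/- transplanted cells against 0.0145 in wild-type transplanted cells, though detected on all 4 arrays. Pik3r5, a regulatory subunit of PI3K gamma, gave 0.58 in native and 0.33 in transplanted cells. Among 17 genes that regulate or carry out integrin activation only Fermt3 (kindlin-3) passed, at 0.82 in transplanted cells and 0.21 in native cells. Rapgef3 gave 0.56 and 0.13, and the focal adhesion protein Vcl gave 0.42 and 0.54, native first.

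Of 13 genes that build selectin ligands only the sialyltransferase St3gal6 passed, at -0.87 in native cells against -0.16 in transplanted cells. The fucosyltransferases Fut7 and Fut4 gave 0.37 each in native cells, and -0.01 and 0.44 in transplanted cells. C1galt1, which builds the core of O-glycans, gave 0.13 in native cells and -0.43 in transplanted cells.

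Of 9 proteases and regulators of retention, 2 were lower in Sf3b1+/- native cells and 2 higher in Sf3b1+/- transplanted cells. Plaur, the urokinase receptor, gave -0.9996 and -0.42, native first. Its ligand Plau, counted with it as lower in native cells, was not well above background on either native array and gave 0.15 in transplanted cells. The membrane protease Mmp14 gave 0.48 and 1.11, and Cd38 gave -0.24 and 0.71. Mmp14 was dim, at 0.0299 in Sf3b1+/- transplanted cells against 0.0139 in wild-type transplanted cells. Of 10 transcription factors tied to retention or quiescence none passed in either setting. The widest were Foxo1 (-0.42) and Klf2 (-0.33) in native cells, and Cited2 (0.51) and Bmi1 (-0.34) in transplanted cells.

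Markers of other cells differed between the groups as well. Neutrophil markers (5 of 5 detected on each array) summed to 4.03 in Sf3b1+/- transplanted cells against 8.10 in wild-type transplanted cells, and to 3.93 against 4.07 in native cells. Of 6 B cell markers 5 were detected in Sf3b1+/- native cells, 4 in wild-type native cells and 1 in each transplanted group, where Ms4a1, Cd79a, Pax5 and Ebf1 were not above background, and their sums, mostly Cd79b, were 2.07 against 3.03 in native cells and 1.93 against 2.03 in transplanted cells. T and NK cell markers, 4 to 7 of 8 of them detected, summed to 0.853 against 1.06 before and 0.992 against 1.16 after transplantation. Among them Klrb1c went the other way in transplanted cells, at 0.248 in Sf3b1+/- against 0.0999 in wild-type cells, while every other marker of that list read lower. Of the macrophage and dendritic cell markers 3 to 5 of 5 were detected, and their sums of 54.3 against 62.6 before and 48.4 against 70.7 after transplantation, Sf3b1+/- first, were mostly Siglech (52.0 against 59.3 and 44.5 against 66.1). The others did not all follow it: Adgre1 gave 0.51 between genotypes in transplanted cells, and the median marker was 0.80 higher in Sf3b1+/- transplanted than in Sf3b1+/- native cells while the sum was lower. Mast cell, basophil and eosinophil markers, 4 of 5 detected on each array with Ms4a2 below background, summed to 2.68 against 2.24 before and 3.59 against 2.86 after transplantation. Erythroid sums lay between 1.29 and 1.92, and stromal sums between 3.03 and 5.12 with Cxcl12 and Cdh5 below background on all 4. Cd44, Itgb2, Itgal and Selplg are also expressed by mature blood cells, and the part of such cells in the values of the homing genes was not tested.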

How the data were processed

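RNA from sorted LSK cells was measured on 4 single-colour Agilent arrays, 1 per group. Per the labels, the Cy3 targets were made by amplifying 20 ng of RNA with spike-ins added. The headers name array design 028005, Feature Extraction 10.7.1.1 (protocol GE1_107_Sep09) and build mm9. The deposited processed signal is a spot intensity, background-subtracted and detrended by the scanner software and not scaled across arrays, per the file headers. The series matrix deposited by the authors holds ratio values, the same signal over a constant of each array, as its values show. Its tool is not stated in the sources used here.

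Spots of a probe were averaged as log2 processed signal and shifted by the array's 75th percentile. The mean share of spots detected was 49.5%, below the planned limit, so the percentile was taken over the 24732 probes well above background on all 4 arrays, and that over all probes became an alternative. Array medians of local background were 42 to 45 units, and the number of arrays limits the precision. Probes were named through RefSeq accessions, genes well above background on at least 2 of 4 arrays were compared, and the brightest probe stood for its gene. Within a setting differences are values with no test, counted past 1.5-fold. Genotype and setting were fitted in limma 3.58.1 (R 4.3.3, data.table version 1.17.8; lmFit and eBayes, two-sided, Benjamini-Hochberg 0.05 over all genes compared), with 1 residual and 3.04 prior degrees of freedom, tested on simulated data. The closing section gives the effect of alternative scalings, background correction (normexp with offset 50), filters, probe averaging, a 2-fold limit and eBayes settings.

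The members and lists were chosen with earlier results of these data known. Named beside the 10 members are, from each list, the genes past 1.5-fold the same way in both settings and the 2 with the widest difference in each setting. For the 2 widest-ranging members the 3 nearest genes are named. The list symbol Adrbk1 is an older name of Grk2 and was counted once. Single results of some listed genes and of 1 list are not reported here. Probe sequences and protein sequences were not used here. Figures were drawn with matplotlib 3.10.9 in Python 3.11.15.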

Additional observations from a re-analysis of the deposited data

Results flagged for a closer look

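For 3 members the differences pointed opposite ways on the arrays of the 2 groups compared, and in each case the gap between the differences was not tested, because 1 array stood for each group. The genotype difference of Itgb2 (log2, Sf3b1+/- minus wild type) was 0.58 in transplanted cells and -0.22 in native cells. For Selplg it was -0.048 in transplanted cells and 0.08 in native cells. The transplantation difference of Selplg (transplanted minus native) was -0.12 in Sf3b1+/- cells and 0.01 in wild-type cells, and for Itga6 it was 0.0021 in Sf3b1+/- cells and -0.19 in wild-type cells. For Itga6 and for the transplantation difference of Selplg the opposite direction was lost with quantile normalization, cyclic loess, normexp, the percentile over all probes and the deposited table, where the Itga6 value in Sf3b1+/- cells lay between -0.088 and -0.0090 and the Selplg value in wild-type cells between -0.064 and -0.018. With the mean over its probes the transplantation difference of Selplg was 0.037 in Sf3b1+/- and 0.085 in wild-type cells. The genotype difference of Selplg in transplanted cells became 0.024 with cyclic loess and 0.045 with the mean over its probes, so that its opposite direction was lost there too. Of these values, those of Itgb2 alone exceeded the scanner software's error of about 0.20 on both sides.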

How the results depend on the processing

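No paired analysis was possible because the groups share only replicate number 1. With 1 array per group none could be left out. No member was called in the main fit, so no call of a member there could reverse. The setting effects of Cd44 and Itga4, called with a prior variance that follows the mean signal, were negative. With spike-in scaling they became 0.25 and 0.27 and were not called. The count of members past 1.5-fold between genotypes in transplanted cells was 0. It became 1 with the percentile over all probes, with cyclic loess and with the deposited table, and 1 with the mean over the probes of a gene. For transplanted against native Sf3b1+/- cells the count of 1 became 2 with the mean over probes and 0 at 2-fold. The native and transplanted genotype medians over the members became 0.021 and 0.0063 with quantile normalization, 0.019 and 0.045 with cyclic loess, and 0.045 and 0.044 with normexp, an alternative chosen after seeing the data because the files hold no mean signal.

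Spike-in scaling shifted the medians of all genes by 0.24 (genotype, native), 0.62 (genotype, transplanted), 0.85 (transplanted minus native, Sf3b1+/-) and 0.47 (the same, wild type). The members' medians became 0.20, 0.56, 0.92 and 0.55 in that order, and 4, 8 and 4 members passed 1.5-fold in the last 3 of these comparisons. This scaling adds 1 constant per array, so that the members keep their place relative to the shifts. All 40 member differences were then positive. Transplanted minus native, Cd44 gave 0.47 in Sf3b1+/- and 0.017 in wild-type cells, and Itga4 gave 0.34 and 0.20. The genotype difference of Cxcr4 was 0.055 in native and 0.51 in transplanted cells. For setting, limma called 6 members with spike-in scaling (47.4% of all genes), 1 with normexp (11.7%) and 3 with a variance trend, against 0 otherwise. Over all genes the 75 calls became 6176, 1525 and 2226 under these 3, 265 with detection on all 4 arrays, 7 with the mean over probes, 32 with setting alone, and 0 with quantile normalization, cyclic loess, the deposited table or no filter. For genotype no member was called under any alternative, while all genes gave 638 calls with spike-in scaling, 12 with normexp and 98 with the trend, against 0.

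Apart from spike-in scaling, the genotype difference changed sign under some alternative for Itga4 and Cd47 in native cells and for Selplg, Itgb1 and Cd47 in transplanted cells. The transplantation difference did so for Selplg, Itga6 and Itgb1 in Sf3b1+/- cells and for Selplg in wild-type cells. That of Itga5 in Sf3b1+/- cells moved to 0.24 with normexp, and that of Cd44 in wild-type cells to -0.03 with the mean over probes. Other homing genes higher and lower in Sf3b1+/- transplanted cells, 17 and 5, became 86 and 0 with spike-in scaling and 14 and 2 with normexp, and 1 and 13 in native cells became 11 and 7 and 0 and 4. Causes were not tested. The dimmest probe, that of Itga5, had a processed signal of 48.5 to 140 units over local backgrounds of 42 to 45.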

Other observations

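The other homing genes were also compared between settings. Of the 141, 27 were at least 1.5-fold higher and 11 lower in Sf3b1+/- transplanted than in Sf3b1+/- native cells, beside 11.4% and 7.02% of all genes, and 17 were higher and 9 lower in wild-type transplanted than in wild-type native cells, beside 7.98% and 5.74%. In both genotypes alike, 15 passed upward and 4 downward, where 7.01% of all genes passed the same way. These counts use measured values. Itga3 and Plau, counted upward, were not well above background on either native array, nor was Itga2, counted downward, on either transplanted array. As bounds, Itga3 was at least 1.17-fold and 1.08-fold higher and Itga2 at least 1.76-fold and 1.36-fold lower, Sf3b1+/- first. Plau was at least 1.96-fold and 1.52-fold higher. The 27 and the 9 also include Ackr3. The junctional adhesion molecule Jam2 was higher by 3.66 in Sf3b1+/- cells and 2.29 in wild-type cells, Selp by 2.87 and 1.603, and the chemokine receptor Ccr2 by 1.19 and 1.48. The integrin chain Itgb5, a partner of alphaV, gave -2.63 and -2.15 and was the only gene of the lists called for setting by limma (adjusted p 0.0402). That call was lost with quantile normalization, cyclic loess, the deposited table or no filter on dim probes, where no gene was called. Vcam1 gave 0.69 in Sf3b1+/- cells and -1.50 in wild-type cells. These genes were picked for their values.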
